A study of Arabidopsis thaliana with 54 samples.

Results

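The comparison described here was rosettes of the Arabidopsis thaliana mutant spl7 against rosettes of its wild type, ecotype Col-0, after 3 days in a nutrient solution with neither iron nor copper. Its members were chosen from the sample titles alone: 3 count files of spl7 rosettes and 3 of Col-0 rosettes, 6 of the 54 libraries of the series, with every gene as a readout. The series holds roots and rosettes of both genotypes on control solution, without iron, without copper and without both. Plants stood in hydroponic containers of 16 plants under a photoperiod of 16 h, for 10 days and then a further 14 days before the treatments. The spl7 plants carried the insertion SALK_109908c. Both groups had 25 µM iron before the treatment, Col-0 with 0.1 µM copper and spl7 with 2.5 µM copper, and then 0 µM iron and 0 µM copper for 3 days. The copper pretreatment was therefore tied to the genotype, and the effects of the mutation and of the earlier copper supply cannot be told apart in the comparison without both metals. The series has 3 further spl7 rosette libraries, on control solution only, with the Col-0 pretreatment of 0.1 µM copper. The 9 rosette groups held 3 libraries each, 27 in all, and the control solution held 25 µM iron and 0.5 µM copper.

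SPL7 is a transcription factor of the SQUAMOSA promoter binding protein family that binds GTAC motifs and switches on the copper deficiency response: copper transporters, the iron superoxide dismutase FSD1, and microRNAs that silence genes for dispensable copper proteins such as the copper/zinc superoxide dismutases. Plants without it cannot economize on copper and grow poorly when copper is scarce. Iron deficiency has its own regulators, among them the Ib group of bHLH factors, the IRON MAN peptides and the ubiquitin ligase BRUTUS, and the responses to the 2 metals meet at the superoxide dismutases and at shared transporters.

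Reads counted per gene came to between 11694883 and 17921929 in the 6 libraries. All levels below are CPM, the reads of a gene divided by the effective library size and brought to a common total. Differences are log2 ratios of spl7 over Col-0 (n = 3 libraries a group). A gene rose or fell where edgeR's quasi-likelihood test, fitted over all 27 rosette libraries, gave a Benjamini-Hochberg adjusted p below 0.05. The standard errors (± SE) were worked back from that test, as the absolute log2 ratio divided by the square root of its F value. They are not direct estimates. At few reads, as for FSD1 in spl7, those of different contrasts need not match. Of 20015 genes tested, 1783 (8.91%) differed between the genotypes without both metals, 827 higher in spl7 (4.13%) and 956 lower (4.78%). At a change of at least 2-fold, 283 were higher (1.41%) and 44 lower (0.22%). The libraries of the 2 groups did not overlap for 32.1% of all tested genes, so lack of overlap alone does not set a gene apart. The median log2 ratio over all tested genes was 0.009. With library totals alone in place of TMM scaling 2144 genes were called, 73.5% of them higher in spl7 against 46.4% here, and the median was 0.11. Fewer genes, between 734 and 1510, were called when any single library of the 6 was left out, with the lowest count without spl7 replicate 1. No label says whether replicates came from separate containers, so the p-values measure the spread between these libraries. In whole rosettes, fewer cells of a type and less RNA per cell cannot be told apart.

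The SPL7 transcript itself stood at 23.6, 24.6 and 24.9 CPM in the Col-0 libraries without both metals and at 11.2, 9.93 and 10.2 CPM in the spl7 libraries. The groups did not overlap, and transcript of the disrupted gene remained countable in spl7. The difference was -1.22 ± 0.13 log2 (adjusted p = 3.6e-06, edgeR). In the 9 other Col-0 rosette libraries SPL7 lay between 23.5 and 30.8 CPM. In the 12 other spl7 rosette libraries it lay between 9.05 and 18.3 CPM, so every library had the level that its label would give. Of the 20 tested genes nearest to SPL7 on chromosome 5, 10 on each side, 1 was called: AT5G18790, at -0.63 ± 0.17.

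The genes that SPL7 is known to switch on were the first group examined. Upstream windows of 300 bases ending at the annotated gene start are printed for the 3 fallen copper deficiency genes that hold the SPL7 core motif GTAC there, because the group's differences centre on them (RefSeq annotation, TAIR10.1). The capitals mark GTAC, which reads the same on both strands. FSD1, chr4:12887012-12887311, minus strand, has 1 copy starting 145 bases before the gene start. YSL2, chr5:8323595-8323894, plus strand, has 4 copies, at 282, 114, 83 and 70 bases. CCH, chr3:20864728-20865027, minus strand, has 1 copy at 18 bases.
FSD1: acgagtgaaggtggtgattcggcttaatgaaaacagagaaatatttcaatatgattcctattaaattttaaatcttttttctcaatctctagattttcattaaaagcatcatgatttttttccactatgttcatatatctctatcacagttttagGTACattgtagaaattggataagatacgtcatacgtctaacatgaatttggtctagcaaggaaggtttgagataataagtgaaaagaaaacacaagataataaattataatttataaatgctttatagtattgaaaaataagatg
YSL2: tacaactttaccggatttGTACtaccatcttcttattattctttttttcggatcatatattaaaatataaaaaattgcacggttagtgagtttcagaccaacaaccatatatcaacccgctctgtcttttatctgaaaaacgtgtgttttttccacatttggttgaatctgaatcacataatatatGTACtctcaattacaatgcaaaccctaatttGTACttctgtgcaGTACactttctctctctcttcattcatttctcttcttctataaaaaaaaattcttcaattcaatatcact
CCH: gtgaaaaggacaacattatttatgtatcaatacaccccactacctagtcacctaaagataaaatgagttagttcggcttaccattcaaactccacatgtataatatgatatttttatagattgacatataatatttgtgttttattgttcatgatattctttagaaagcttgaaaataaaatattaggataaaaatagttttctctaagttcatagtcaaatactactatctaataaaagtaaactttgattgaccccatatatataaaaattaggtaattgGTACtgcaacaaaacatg
At least 1 GTAC stood in 39.7% of the windows of 27443 protein-coding genes, at least 3 in 2.23% and at least 4 in 0.452%. Among the measured copper deficiency genes it stood in 3 of the 4 that fell and in 0 of the 3 not called. COPT2, the remaining gene that fell, had none in this window. Over all called genes the share was 39.8% for those higher in spl7 and 41.4% for those lower, both close to the share of all windows.

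Of 11 copper deficiency genes, 7 had enough reads to be tested, 4 of them fell in spl7, none rose, and the median log2 ratio was -0.79. FSD1 (AT4G25100), the iron superoxide dismutase that takes over from the copper/zinc enzymes when copper is short, stood at 70.0, 148 and 116 CPM in Col-0 and at 0.205, 0.351 and 0.183 CPM in spl7. Every spl7 library held 3 or 4 reads of it where Col-0 held 936 to 2008. The difference was -8.84 ± 0.58 (adjusted p = 2.8e-09), with a ratio of 476 by counts and a counting interval of 258 to 992, the largest fall among the leading genes. CCH, a copper chaperone, stood at 98.4, 111 and 98.5 CPM against 60.9, 62.5 and 55.1 CPM. The 2 groups stood clear of each other, and CCH fell by 0.79 on the log2 scale (SE 0.08, adjusted p = 3.6e-06). YSL2, a transporter of the Yellow Stripe-Like family that carries nicotianamine complexes of metals, stood at 4.12, 2.36 and 4.57 CPM against 1.7, 1.14 and 1.34 CPM. It also fell without overlap (-1.39 ± 0.26, adjusted p = 0.0019). COPT2, a high-affinity copper importer, stood at 0.823, 2.14 and 1.13 CPM against 0.409, 0.264 and 0.548 CPM. It fell by 1.67 on the log2 scale (SE 0.47, adjusted p = 0.026), on few reads. Leaving out Col-0 replicate 2, spl7 replicate 1 or spl7 replicate 2 took COPT2 out of the called genes (adjusted p up to 0.15).

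None of the other copper uptake genes tested was called. COPT1, a copper importer of the plasma membrane, stood at 47.2, 58.0 and 48.8 CPM in Col-0 and 41.7, 40.3 and 46.6 CPM in spl7. Its libraries did not overlap (-0.26 ± 0.09, adjusted p = 0.077), and without spl7 replicate 3 the adjusted p was 0.043. The importer COPT6 (-0.19 ± 0.13, adjusted p = 0.42) and the metal reductase gene FRO4 (0.17 ± 0.21, adjusted p = 0.70) were not called. The reductase gene FRO5, the transporter gene ZIP2, AT1G71200 (CITF1), a bHLH factor of copper uptake, and BHLH23 had too few reads in rosettes to be tested. Of 13 genes of copper delivery inside the cell, 12 were tested and 1 was called. PAA1, the copper pump of the chloroplast envelope, stood at 79.5, 77.3 and 81.0 CPM in Col-0 and 60.1, 62.3 and 63.6 CPM in spl7 (-0.36 ± 0.08, adjusted p = 0.0090). The groups of PAA1 were apart by more than the spread within them, though without spl7 replicate 1 its adjusted p was 0.053. The list's median was -0.05, and plastocyanin, the copper protein of photosynthetic electron transport, was not called for either gene (PETE1 -0.23 ± 0.11, PETE2 -0.25 ± 0.12, both adjusted p = 0.20).

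The size of the FSD1 and CCH gap can be set against the other solutions. On control solution, where 469 genes were called (2.34%; 1.52% higher in spl7), FSD1 differed by -9.54 ± 0.55, YSL2 by -1.46 ± 0.26 and CCH by -0.90 ± 0.08 between the same genotypes and pretreatments. The difference without both metals minus the difference on control solution was not called for any of the 7 genes (FSD1 0.70 ± 1.7, YSL2 0.07 ± 0.37, CCH 0.11 ± 0.11). Mean FSD1 in Col-0 was 222 ± 69.7 CPM (SD, n = 3) on control solution, 563 ± 24.5 without copper, 4.93 ± 1.79 without iron and 111 ± 39.3 without both. In spl7 the highest group mean was 1.41 CPM, without copper, where replicate 1 stood at 3.75 CPM and the other libraries at 0.250 and 0.217. The next highest spl7 mean was 0.425 CPM. Col-0 thus held FSD1 without both metals at a level between those without iron and without copper, and spl7 held far less on every solution. CCH in Col-0 went from 175 ± 3.55 CPM without copper to 57.8 ± 2.07 without iron, with 103 ± 7.15 without both. In spl7 it stayed between 59.0 and 78.9 CPM on the 4 solutions with its usual pretreatment. By group means CCH was lower in spl7 on every solution but the iron-free one with copper. The genotype difference without both metals minus that without copper was 0.78 ± 0.11 (adjusted p = 0.00028), and minus that without iron it was -1.24 ± 0.11 (adjusted p = 1.1e-06). These contrasts share the 6 libraries without both metals. In spl7 with 0.1 µM copper before the control solution, CCH stood at 100 ± 3.27 CPM.

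**Figure D1:**
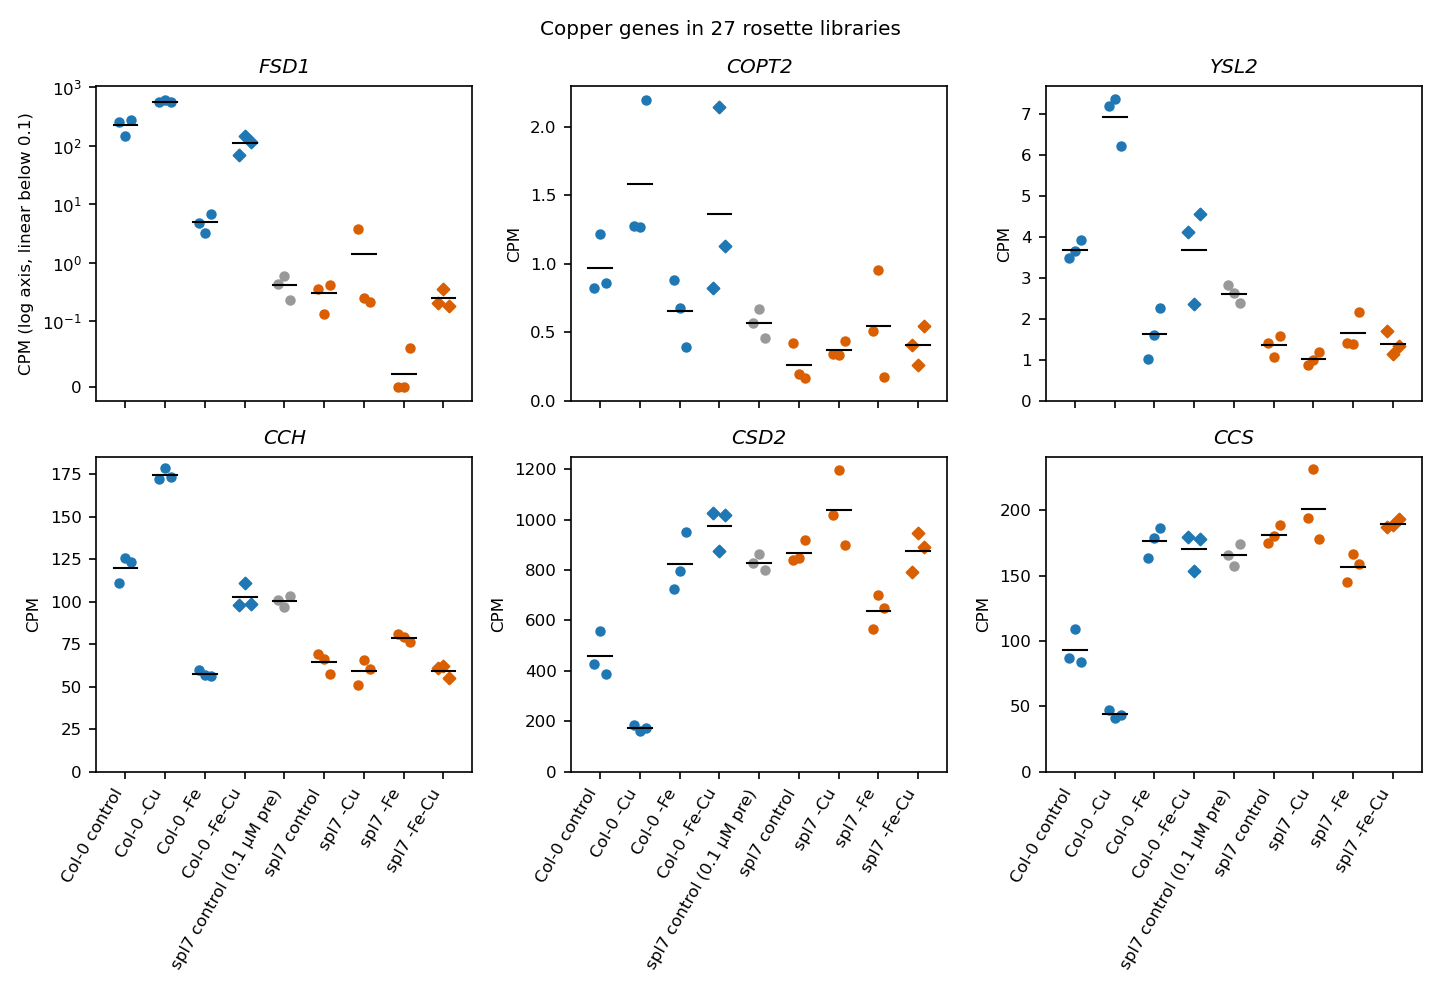
CPM of FSD1, COPT2, YSL2, CCH, CSD2 and CCS in each of the 27 rosette libraries, by genotype and solution (bars are group means, n = 3; diamonds mark the groups without both metals; the FSD1 axis is logarithmic and linear below 0.1). FSD1 stands at 70.0 to 148 CPM in Col-0 and 0.183 to 0.351 CPM in spl7 without both metals, while CSD2 and CCS reach similar levels in both genotypes there.

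MicroRNAs of the miR398 and miR397 families are made under copper deficiency by way of SPL7 and cut the transcripts of copper proteins. Their precursors had too few reads to be tested in these libraries (0 of 7), so the targets were examined. The mature strands and the pairing stretches of 4 targets are given because the targets carry this result. In the microRNAs the seed, bases 2 to 8, is in capitals, and in the targets the capitals mark bases that form Watson-Crick pairs with the microRNA (RefSeq TAIR10.1).
ath-miR398a-3p: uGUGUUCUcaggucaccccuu
ath-miR398b-3p: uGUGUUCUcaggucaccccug
ath-miR397a: uCAUUGAGugcagcguugaug
CSD1 site: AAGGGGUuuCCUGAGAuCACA
CSD2 site: ugcGGGUGACCUGgGAAacau
CCS site: AuuGGGaGACCUGgGAACACu
LAC17 site: aAUCAAuGCUGCACUuAAUGA
The miR398 strands share a seed, that of miR397a differs. The CSD1 site spans a splice junction outside the coding sequence (chr1:2827177-2827685, plus strand) with 18 paired bases. The sites of CSD2 (chr2:12015572-12015592, plus strand), CCS (chr1:4267521-4267541, minus strand) and LAC17 (chr5:24169068-24169088, plus strand) lie in coding sequence. They pair at 13, 16 and 18 bases with 3, 1 and 2 further G:U pairs.

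Of 13 targets 11 were tested, 1 rose and none fell, with a median log2 ratio of 0.35. CSD2, the copper/zinc superoxide dismutase of the chloroplast, stood at 1026, 874 and 1019 CPM in Col-0 and 792, 946 and 890 CPM in spl7. CSD1, the cytosolic enzyme, stood at 249, 261 and 239 CPM against 255, 260 and 271 CPM. CCS, the chaperone that loads both enzymes with copper, stood at 180, 154 and 178 CPM against 187, 189 and 193 CPM. The groups of CSD1 and CSD2 overlapped, those of CCS lay next to each other, and none of the 3 was called (CSD2 -0.15 ± 0.13, CSD1 0.07 ± 0.08, CCS 0.15 ± 0.10, adjusted p = 0.52, 0.68 and 0.35). The gene that rose was LAC17, a laccase of lignin formation, at 15, 17.6 and 15.6 CPM against 24.8, 20.2 and 21.6 CPM. The libraries did not overlap (0.47 ± 0.13, adjusted p = 0.027), but leaving out spl7 replicate 1 raised its adjusted p to 0.15. The 10 targets not called, among them the laccase genes LAC2 (1.3) and LAC4 (0.82), lay between -0.15 and 1.3, and LAC3 and LAC7 had too few reads to be tested.

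Without copper alone the levels of CSD1, CSD2 and CCS were lower in Col-0 than in spl7. Mean CSD2 in Col-0 was 457 ± 88.8 CPM (SD) on control solution, 174 ± 12.2 without copper, 823 ± 115 without iron and 973 ± 86.0 without both, while spl7 with its usual pretreatment stayed between 639 and 1038 CPM. Mean CCS in Col-0 was 43.9 ± 2.99 CPM without copper and 170 ± 14.5 without both. In spl7 its lowest group mean was 157 CPM. The genotype difference without both metals minus that without copper was -2.73 ± 0.18 for CSD2, -2.04 ± 0.14 for CCS and -1.46 ± 0.11 for CSD1 (adjusted p = 2.9e-09, 2.9e-09 and 3.8e-08; 2693 genes, 13.5%, were called in this contrast). Col-0 that lacked iron as well as copper thus did not show the low CSD1, CSD2 and CCS of Col-0 that lacked copper alone.

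Iron deficiency regulators were higher in spl7 in a minority of the list, and the calls rested on 2 of the 3 spl7 libraries. Of 20 regulators 19 were tested: 4 rose and 1 fell, with a median log2 ratio of 0.98. BHLH100, a bHLH factor of the Ib group that turns on iron uptake, stood at 0.15, 0 and 0 CPM in Col-0 and 7.16, 8.17 and 0.670 CPM in spl7. By counts the ratio was 108 with a counting interval of 29.4 to 895 (adjusted p = 0.043). AT1G47400 (IMA1), which encodes an IRON MAN peptide, stood at 0.973, 0.664 and 0.475 CPM against 10.8, 9.93 and 2.19 CPM. It rose by 3.42 ± 1.04 (adjusted p = 0.040). BTS (BRUTUS), the ubiquitin ligase that limits the iron response, stood at 109, 108 and 96.1 CPM against 302, 317 and 123 CPM (1.24 ± 0.38, adjusted p = 0.044). In all 3 genes spl7 replicate 3 stood far below the other spl7 libraries and just above Col-0. The fourth gene that rose was BHLH101, of the same Ib group (2.58 ± 0.81, adjusted p = 0.046), and the gene that fell was BHLH34, a factor acting above that group, at 9.20, 9.15 and 9.50 CPM against 7.23, 6.77 and 7.50 CPM (-0.37 ± 0.09, adjusted p = 0.016).

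The library split ran through the list. Replicate 3 was the spl7 library nearest to the Col-0 mean for 13 of the 19 regulators, and the number that rose was 5 without it and 0 without Col-0 replicate 1. BHLH100, BHLH101, BTS and IMA1 each kept the call only when spl7 replicate 3 was left out (adjusted p up to 0.17 in the other 5 tests), and BHLH34 lost it in 3 of 6 (up to 0.070). Named regulators with the same split were not called: BHLH38 at 0, 0 and 0 CPM against 2.32, 2.64 and 0.122 CPM (adjusted p = 0.22), BHLH39 at 0, 0.0738 and 0 CPM against 1.16, 1.32 and 0.305 CPM (adjusted p = 0.16), PYE (1.03 ± 0.34, adjusted p = 0.057), IMA2 (3.07 ± 1.1, adjusted p = 0.085) and AT2G30766 (IMA3, 3.06 ± 1.08, adjusted p = 0.080). Without spl7 replicate 3, PYE had an adjusted p of 0.0039. The uptake regulator FIT was not called (0.33 ± 0.23), nor was ILR3, a partner of the bHLH factors above the Ib group (-0.11 ± 0.06). On iron-free solution with copper, spl7 held 191 ± 34.0 CPM of BHLH100, 108 ± 29.9 of IMA1 and 778 ± 98.7 of BTS (SD, n = 3). Without both metals the spl7 means were 5.33 ± 4.07, 7.63 ± 4.73 and 247 ± 108 CPM. In Col-0 the means were 5.71 ± 6.67, 10.1 ± 9.05 and 173 ± 63.5 CPM without iron and 0.0499, 0.704 and 105 CPM without both. Both genotypes thus had lower means when copper was withheld as well.

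Iron transport and storage genes moved in several directions. Of 22 transport genes 20 were tested, 1 rose and 3 fell, with a median log2 ratio of 0.09. ZIF1, which moves nicotianamine into the vacuole, stood at 38.2, 38.4 and 37.1 CPM against 85.4, 78.8 and 43.5 CPM. It rose (0.87 ± 0.24, adjusted p = 0.023), again with spl7 replicate 3 nearest to Col-0, and without spl7 replicate 1 the adjusted p was 0.15. FRO7, the ferric reductase of the chloroplast, stood at 271, 301 and 316 CPM against 184, 175 and 204 CPM. It fell (-0.66 ± 0.12, adjusted p = 0.0019), whereas on control solution it was higher in spl7 (0.74 ± 0.12, adjusted p = 0.0024). FRO6, a leaf ferric reductase, stood at 548, 650 and 627 CPM against 373, 365 and 394 CPM (-0.69 ± 0.14, adjusted p = 0.0028). Both reductase genes were apart in every library. NAS3, a nicotianamine synthase, stood at 13.3, 10.2 and 11.8 CPM against 2.39, 3.34 and 3.78 CPM (-1.89 ± 0.53, adjusted p = 0.027). The 2 groups of NAS3 were well apart, but its call was lost without 5 of the 6 libraries in turn (adjusted p up to 0.13). The phloem transporter OPT3 stood at 128, 131 and 97.1 CPM against 301, 293 and 137 CPM and was not called (adjusted p = 0.14), nor was FRO3, the mitochondrial ferric reductase (1.00 ± 0.32, adjusted p = 0.054). The 16 transport genes not called lay between -0.70 and 1.4.

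The storage list had 10 tested genes of 11 and 1 call, with a median of -0.95. NEET, an iron-sulfur protein of chloroplast and mitochondrion, stood at 73.7, 72.3 and 89.3 CPM in Col-0 and 27.5, 26.2 and 20.2 CPM in spl7. The groups did not overlap, and NEET fell by 1.68 on the log2 scale (SE 0.39, adjusted p = 0.0095). FER1, the main leaf ferritin that stores iron in plastids, stood at 104, 66.8 and 120 CPM against 15.8, 17.7 and 17.9 CPM. All 3 spl7 libraries were far below Col-0, yet the test over all rosette libraries gave an adjusted p of 0.057. That test pools the spread over groups such as Col-0 on control solution, at 315 ± 279 CPM of FER1 (SD). FER4 (-1.26 ± 0.41) behaved likewise at 0.055, and FER3 (-1.11 ± 0.47) had 0.14. VTL1, a vacuolar iron transporter of the VIT-like family, stood at 2.77, 2.14 and 3.27 CPM against 0.886, 0.527 and 2.01 CPM and was not called (adjusted p = 0.10). In a test on the 6 libraries alone FER1 had an adjusted p of 2.0e-05 and FER4 of 3.1e-05. That test called more genes in general, 3050 against 1783 in the test over all rosette libraries.

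**Figure D2:**
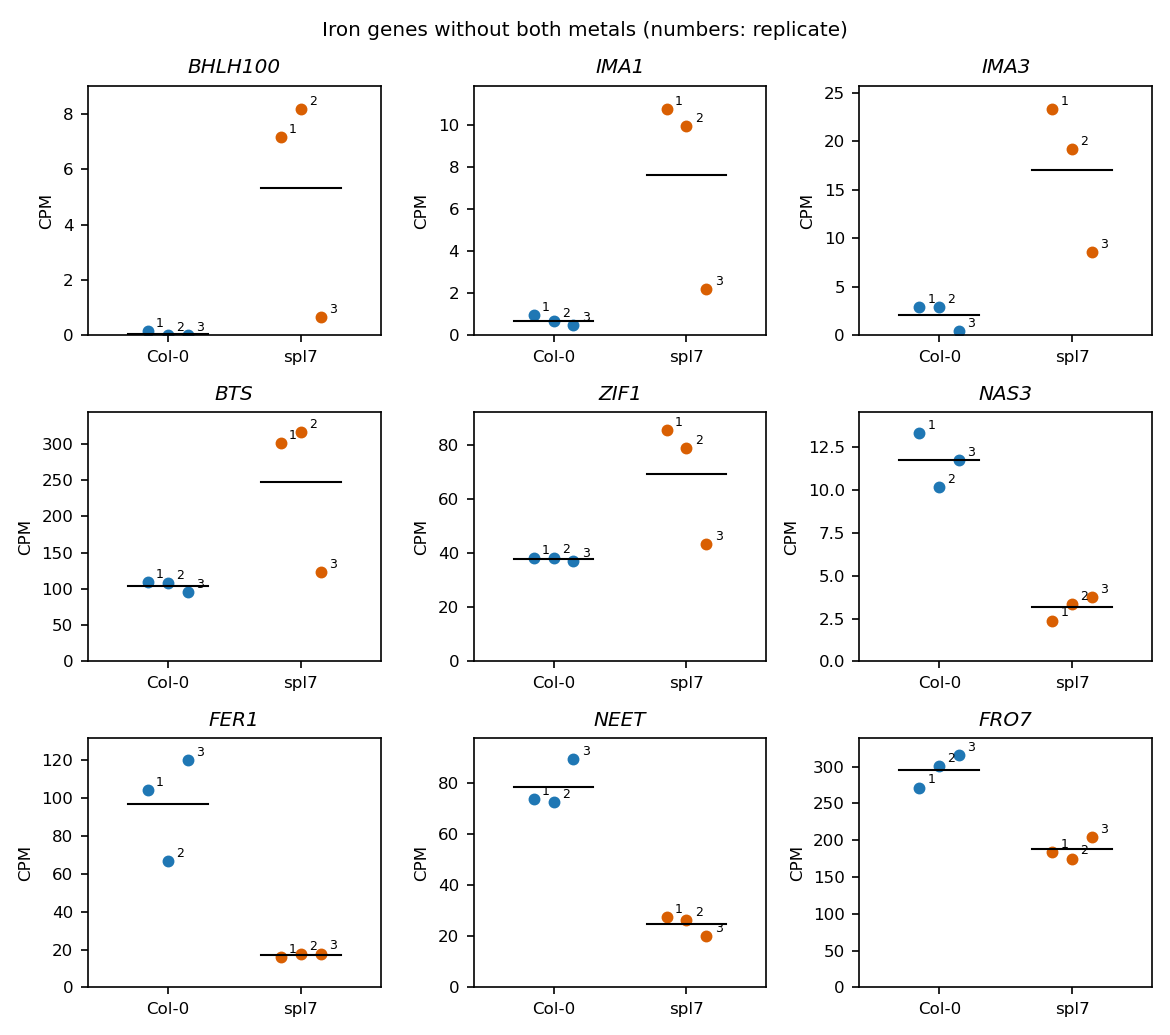
CPM of 9 iron genes in the 6 rosette libraries without both metals (points are libraries marked with their replicate number, bars are group means). For BHLH100, IMA1, IMA3, BTS and ZIF1 spl7 replicate 3 lies nearest to Col-0, while FER1, NEET, FRO7 and NAS3 are lower in all 3 spl7 libraries.

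Genes of peroxide removal, photosynthesis, chlorophyll synthesis and nitrate assimilation were called only in the direction of lower in spl7, with the exception of 1 nitrate gene. Of 10 tested genes for superoxide and peroxide enzymes other than FSD1, CSD1 and CSD2, 2 fell. Catalase 2 (CAT2, AT4G35090), the peroxisomal enzyme that removes peroxide made in photorespiration, stood at 762, 825 and 877 CPM in Col-0 and 339, 326 and 407 CPM in spl7. The groups were far apart (-1.20 ± 0.19, adjusted p = 0.00052), and on control solution CAT2 differed the other way (0.89 ± 0.19, adjusted p = 0.013). SAPX, the stromal ascorbate peroxidase, stood at 112, 88.3 and 111 CPM against 55.2, 55.9 and 57.2 CPM (-0.89 ± 0.21, adjusted p = 0.0093). The superoxide dismutases FSD2, FSD3, MSD1 and CSD3 were not called, at log2 ratios between -0.30 and -0.08.

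Of 34 genes of photosystems and antennae 4 fell and none rose, with a median of -0.25. Over all tested genes 4.78% fell and 8.91% were called in either direction. They were the antenna gene LHCB1.1, PSAN of photosystem I, PSBO2 of the oxygen-evolving complex and NPQ4, the sensor of photoprotective quenching. NPQ4 stood at 1651, 1651 and 1683 CPM against 1229, 1275 and 1334 CPM (-0.38 ± 0.09, adjusted p = 0.0076). LHCB1.1 stood at 8666, 8770 and 8512 CPM against 5807, 6512 and 6198 CPM (-0.49 ± 0.13, adjusted p = 0.022). Neither overlapped. LHCB1.1 has near-identical neighbours in LHCB1.2 and LHCB1.3, which were not called, and how reads were divided among them is not given. PSAN (-0.60) and PSBO2 (-0.35) were not called in any of the 6 tests without 1 library, and LHCB1.1 reached an adjusted p of 0.11. The count was 1 or 2 when any library was left out and 21 in a test on the 6 libraries alone. That last test called more genes in general, 3050 against 1783. Col-0 replicate 2 was the highest of the 6 libraries for 33 of the 34 genes. Without that library LHCB1.1 differed by -0.49, PSAN by -0.57, PSBO2 by -0.35 and NPQ4 by -0.39, and of these only NPQ4 was called. The summed level of the 34 genes was 173650 to 194580 CPM in Col-0 and 150710 to 162340 in spl7. Both lay within the 78027 to 207420 CPM of the other rosette libraries.

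Of 12 genes for electron carriers and Rubisco 6 fell, with a median of -0.47. Their summed level was 37636 to 39504 CPM in Col-0, 25220 to 28364 in spl7 and 16761 to 38469 in the other rosette libraries. Col-0 without both metals was thus at the top of the range of the other libraries, and spl7 lay inside it. FD2, the main leaf ferredoxin, an iron-sulfur protein, stood at 2822, 2836 and 2781 CPM in Col-0 and 1272, 1480 and 1354 CPM in spl7. Every spl7 library was far below every Col-0 library (-1.04 ± 0.25, adjusted p = 0.011). RCA, the Rubisco activase, stood at 8255, 9156 and 8790 CPM against 5433, 5602 and 5702 CPM (-0.65 ± 0.11, adjusted p = 0.00091). FD1 (-0.52), the ferredoxin of lower abundance, and the Rubisco small subunit genes RBCS1B (-0.62), RBCS2B (-0.63) and RBCS3B (-0.58) also fell, although these small subunit genes are near-identical copies and reads shared between them are uncertain. Without spl7 replicate 1 only 2 of the list were called, RCA and FD1, and FD2 had an adjusted p of 0.060.

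Chlorophyll synthesis was the list with the most falls. Of 24 genes of tetrapyrrole synthesis and chlorophyll breakdown 12 fell and none rose, with a median of -0.34. The list's summed level was 13313 to 13594 CPM in Col-0, 9388 to 10345 in spl7 and 5305 to 12803 in the other rosette libraries. Col-0 without both metals was thus above all the other libraries, and spl7 lay within their range. HEMA1, glutamyl-tRNA reductase at the entry of the pathway, stood at 854, 912 and 903 CPM against 381, 409 and 433 CPM. It fell by 1.13 on the log2 scale (SE 0.22, adjusted p = 0.0024). CAO, which makes chlorophyll b, stood at 382, 385 and 353 CPM against 242, 247 and 239 CPM (-0.62 ± 0.08, adjusted p = 3e-05). CHLH, a subunit of magnesium chelatase, stood at 3486, 3456 and 3655 CPM against 2014, 2266 and 2170 CPM (-0.72 ± 0.16, adjusted p = 0.0059). For these 3 genes each spl7 library was below each Col-0 library. The magnesium chelatase subunits CHLI2 (-0.45) and CHLI1 (-0.43), the divinyl reductase DVR (-0.44), CRD1 (-0.42), the cyclase subunit that holds iron, GUN4 (-0.39), an activator of the chelatase, and PORC (-0.35), GSA2, CHLG and HY1 fell as well. The breakdown genes SGR1, NYC1, PAO and PPH were not called, at -0.47 to -0.07. Without spl7 replicate 1 the number that fell was 3. HEMA1 was lower in spl7 by a larger step on iron-free solution with copper, at 61.9 ± 15.3 CPM against 357 ± 100 CPM in Col-0 (SD), and the differences between the genotypes in the 2 solutions were unequal (1.40 ± 0.31, adjusted p = 0.013).

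Of 8 genes of nitrate assimilation 5 fell and 1 rose. Their summed level was 2608 to 2864 CPM in Col-0, 1774 to 1977 in spl7 and 1400 to 2800 in the other rosette libraries. Nitrate reductase NIA2 stood at 538, 562 and 612 CPM against 346, 345 and 337 CPM. It fell (-0.73 ± 0.12, adjusted p = 0.00072), while on control solution it was higher in spl7 (0.58 ± 0.12, adjusted p = 0.012). NIA1 (-0.76), the other nitrate reductase, NIR1 (-0.62), nitrite reductase, GLU1 (-0.52), the ferredoxin-dependent glutamate synthase, and the nitrate transporter NRT1.1 (-0.42) fell. NRT1.7, a phloem nitrate transporter, rose (0.79). NRT1.1 was not called in any of the 6 tests without 1 library (adjusted p up to 0.15), and the number of nitrate genes that fell was then between 2 and 4.

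**Figure D3:**
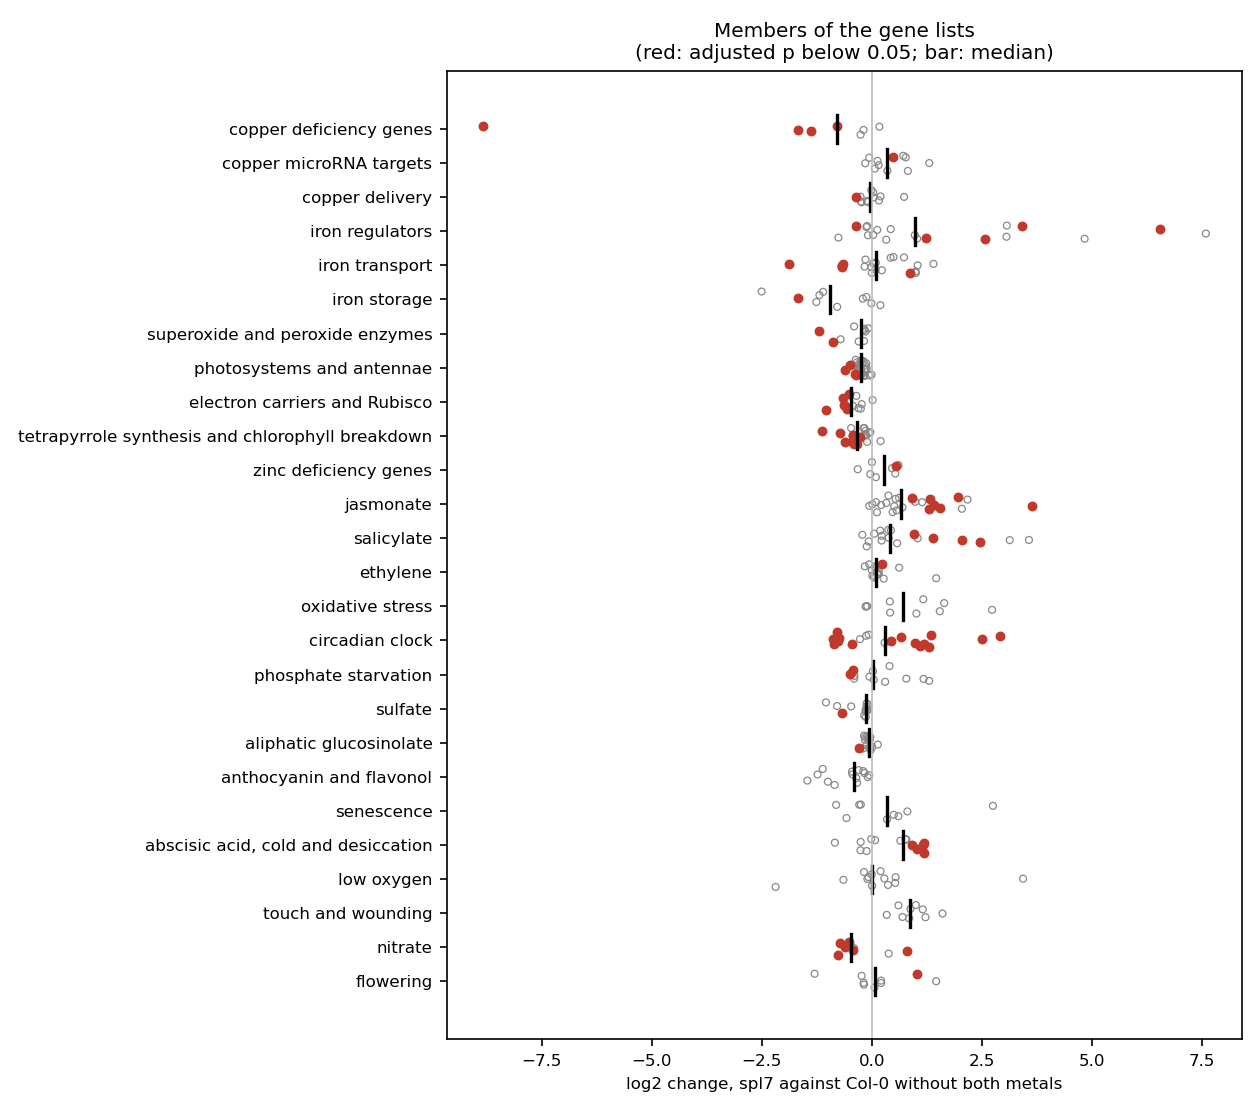
Log2 ratio of spl7 over Col-0 without both metals for every tested gene of 26 lists (each point is a gene, red where the adjusted p is below 0.05, and the bar is the list's median). Clock genes fall on both sides of 0 with 9 higher and 6 lower, while the 12 called genes of chlorophyll synthesis all lie below 0 and the 7 called jasmonate genes above it.

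The circadian clock list held the largest share of called genes. The plant clock runs on morning genes (CCA1, LHY, PRR9 and the RVE and LNK families) and evening genes (TOC1, ELF4, LUX, GI). Of the morning genes, CCA1 and LHY repress evening genes and are repressed by them in turn. Evening genes carry the evening element AAAATATCT, to which CCA1, LHY and RVE8 bind. Of 19 clock genes all were tested, 9 rose and 6 fell, with a median of 0.29. Among the genes that rose, 6 of 9 hold the evening element on either strand in the 300 bases before the gene start. It stands in 0 of the 6 that fell and 0 of the 4 not called. The element stands in 2.79% of the windows of all protein-coding genes, in 7.73% of those of all called genes higher in spl7 (63 of 815) and in 2.22% of those lower (21 of 948). The windows of 3 of these genes are printed because they show the element in 1 or 2 copies. The capitals mark it on the gene's strand as AAAATATCT or, on the opposite strand, as AGATATTTT (TAIR10.1). PRR5 is at chr5:8358547-8358846 (minus), TOC1 at chr5:24674663-24674962 (plus) and LUX at chr3:17182742-17183041 (plus).
PRR5: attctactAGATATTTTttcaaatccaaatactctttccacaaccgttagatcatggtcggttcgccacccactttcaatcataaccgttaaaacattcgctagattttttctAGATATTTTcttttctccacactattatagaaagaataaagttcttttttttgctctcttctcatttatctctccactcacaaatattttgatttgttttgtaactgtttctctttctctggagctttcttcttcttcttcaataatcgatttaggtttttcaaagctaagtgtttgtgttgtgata
TOC1: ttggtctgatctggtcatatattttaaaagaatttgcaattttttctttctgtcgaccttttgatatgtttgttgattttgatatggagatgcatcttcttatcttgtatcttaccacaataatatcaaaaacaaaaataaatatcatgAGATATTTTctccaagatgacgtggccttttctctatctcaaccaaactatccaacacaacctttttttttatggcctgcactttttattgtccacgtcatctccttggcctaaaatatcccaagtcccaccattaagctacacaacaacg
LUX: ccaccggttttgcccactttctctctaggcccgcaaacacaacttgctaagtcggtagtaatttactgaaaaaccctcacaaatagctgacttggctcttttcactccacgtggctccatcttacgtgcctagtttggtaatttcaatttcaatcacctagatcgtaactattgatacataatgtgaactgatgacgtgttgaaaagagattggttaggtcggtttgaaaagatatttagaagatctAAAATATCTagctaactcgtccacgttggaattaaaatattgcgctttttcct

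Evening genes were higher in spl7. COR27, a cold-regulated repressor of the clock, stood at 1.95, 0.959 and 1.25 CPM in Col-0 and 10.5, 12.7 and 8.53 CPM in spl7. AT4G33980 (COR28), its partner, stood at 1.27, 1.62 and 1.54 CPM against 9.75, 9.84 and 6.09 CPM. Both were several-fold higher in every spl7 library (COR27 2.92 ± 0.35, adjusted p = 2e-05; COR28 2.51 ± 0.28, adjusted p = 1.1e-05). FKF1, a blue light receptor of the flowering pathway, stood at 25.2, 22.3 and 25.3 CPM against 67.7, 70.7 and 46.1 CPM (1.34 ± 0.18, adjusted p = 6e-05). TOC1, an evening repressor of CCA1, stood at 42.1, 40.8 and 41.9 CPM against 85.1, 87.9 and 72.2 CPM (0.97 ± 0.13, adjusted p = 0.00011). No library of these genes overlapped between the genotypes. ELF4 (1.31) and LUX (1.1), members of the evening complex, PRR5 (0.67), GI (0.44) and the LUX relative BOA (1.19) rose too. GI and BOA lost their calls without single libraries (adjusted p up to 0.080 and 0.25).

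Morning genes were lower. LNK2, a coactivator for RVE8, stood at 201, 207 and 196 CPM against 121, 113 and 117 CPM (-0.78 ± 0.07, adjusted p = 1.6e-06). PRR9, the earliest of the pseudo-response regulators, stood at 35.8, 37.1 and 35.5 CPM against 19.8, 18.8 and 19.7 CPM (-0.89 ± 0.11, adjusted p = 2e-05). CCA1 stood at 47.7, 49.5 and 43.9 CPM against 29.7, 29.5 and 24.5 CPM (-0.76 ± 0.16, adjusted p = 0.0038). All 3 were separated by more than their spread. LHY (-0.76), RVE8 (-0.86) and RVE4 (-0.45) fell, and PRR7, LNK1, ZTL and ELF3 were not called, at -0.27 to 0.29. Leaving out single libraries gave 7 or 8 clock genes that rose and 5 or 6 that fell.

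The direction of these differences depended on the solution. On control solution COR27 (-1.07 ± 0.26), COR28 (-1.04 ± 0.22) and LUX (-0.63) were lower in spl7, and CCA1 (0.98 ± 0.16), RVE8 (0.85), PRR9 (0.68 ± 0.11), LNK1 (0.47) and LNK2 (0.46 ± 0.08) were higher, each with an adjusted p below the threshold. The difference without both metals minus that on control solution was 3.99 ± 0.43 for COR27 (adjusted p = 3.8e-06), 1.42 ± 0.19 for TOC1 (adjusted p = 3.5e-05) and -1.25 ± 0.11 for LNK2 (adjusted p = 2.2e-07). Group means show which genotype moved. COR27 in Col-0 was at 17.5 ± 4.54 CPM (SD) on control solution, 22.6 ± 1.06 without copper and 17.2 ± 3.96 without iron, but at 1.38 ± 0.507 without both. In spl7 it was at 8.38 ± 0.778, 35.6 ± 14.5, 11.1 ± 3.20 and 10.6 ± 2.06 CPM in that order. LNK2 in Col-0 was at 95.1 ± 4.51, 83.9 ± 2.48 and 108 ± 7.57 CPM and then at 202 ± 5.38 without both. In spl7 it was at 131 ± 2.56, 93.2 ± 10.9, 109 ± 4.2 and 117 ± 3.89 CPM. The Col-0 group without both metals stood apart from the other Col-0 groups for both genes, and the nearest group was spl7 pretreated with 0.1 µM copper, on control solution, at 3.19 ± 0.408 CPM of COR27 and 222 ± 21.5 of LNK2. The labels give no hour of harvest, so harvest time and treatment cannot be told apart for genes that cycle over the day.

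**Figure D4:**
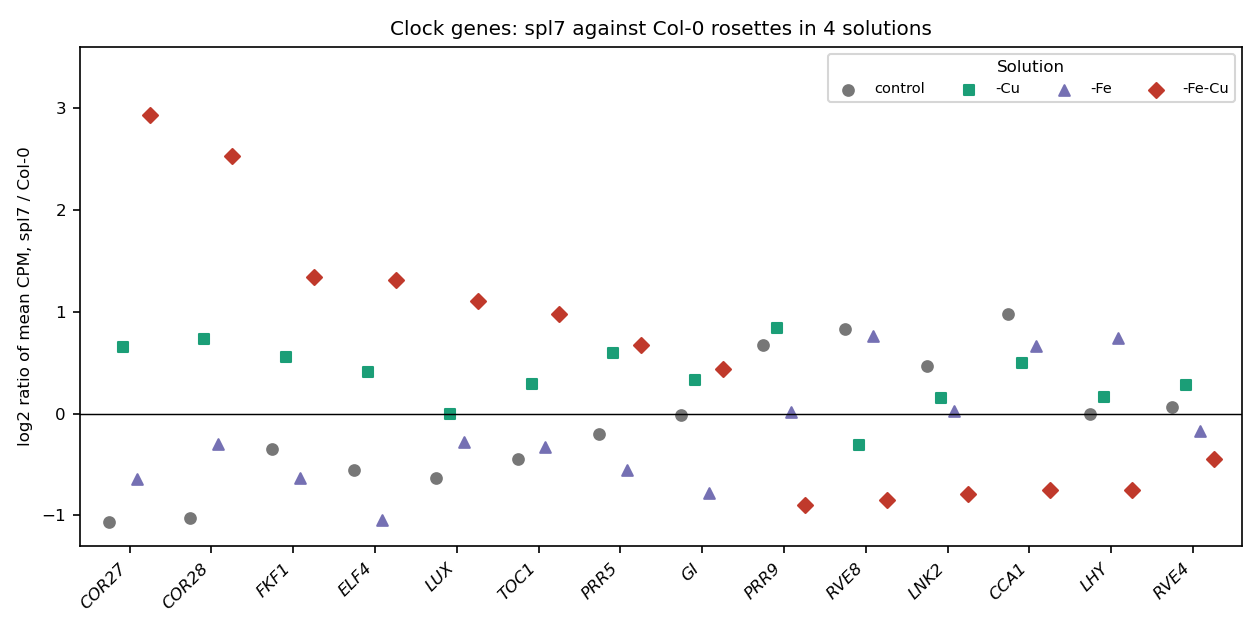
Log2 ratio of mean CPM in spl7 over Col-0 for 14 clock genes on 4 solutions, without a test of its own. The evening genes COR27 and COR28 lie above 0 and the morning genes PRR9, CCA1 and LNK2 below 0 without both metals, and on the opposite side on control solution.

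Further genes were named after their values were seen, from the 12 rises and 12 falls with the smallest p-values. GRP7, a glycine-rich RNA-binding protein that peaks in the evening, stood at 872, 930 and 867 CPM in Col-0 and 2317, 2196 and 1974 CPM in spl7 (1.28 ± 0.10, adjusted p = 2.4e-08). CCR1 (AT4G39260), its close relative, rose by 0.70 ± 0.07 (adjusted p = 3.6e-06). ACA8, a calcium pump of the plasma membrane, stood at 45, 43.0 and 49.0 CPM against 121, 127 and 97.6 CPM (1.33 ± 0.11, adjusted p = 2.5e-07). None of these 3 overlapped between genotypes. PRR3 (1.1), a stabilizer of TOC1, and BBX13 (0.93) rose. BBX16 (-1.03), STH (-0.96), CDF1 (-0.83), a repressor of CONSTANS, and FBA1 (-0.73), a chloroplast aldolase, fell, as did AT1G13650 (-1.42), at 196, 187 and 181 CPM against 71.2, 63.0 and 76.5 CPM. Each of these kept its call without any single library. GRP7 in Col-0 was at 2530, 2848 and 2639 CPM on the other solutions and at 890 CPM without both, where spl7 was at 2162 CPM. In spl7 on control solution it stood at 1647, 1582 and 1911 CPM. After the 0.1 µM copper pretreatment the spl7 control libraries stood at 1033, 963 and 904 CPM. The low level was thus not particular to Col-0 without both metals. Harvest time and treatment cannot be told apart for this gene either.

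Salicylate genes rose in part. Of 18 genes 4 rose and none fell, with a median of 0.41. Their summed level was 237 to 277 CPM in Col-0, 329 to 509 in spl7 and 213 to 811 in the other rosette libraries. WRKY70, a transcription factor of salicylate-dependent defence, stood at 18.7, 22.9 and 25.3 CPM in Col-0 and 105, 112 and 63.7 CPM in spl7 (2.06 ± 0.32, adjusted p = 0.00042). SARD1, which activates salicylate synthesis, stood at 2.54, 2.95 and 4.27 CPM against 8.79, 10.5 and 7.07 CPM (1.40 ± 0.23, adjusted p = 0.00073). Neither overlapped, and on control solution SARD1 was lower in spl7 (-1.03 ± 0.22, adjusted p = 0.011). NIMIN1 (2.46 ± 0.46), a partner of the salicylate receptor NPR1, and DMR6 (0.95 ± 0.25), a salicylate hydroxylase, rose, DMR6 with an adjusted p of up to 0.083 when single libraries were left out. ICS1, the synthase of salicylate, stood at 18.2, 18.5 and 18.6 CPM against 14.2, 18.4 and 15.2 CPM and was not called. PR1, the standard salicylate marker, stood at 0.673, 1.03 and 0.534 CPM against 0.205, 26.1 and 2.32 CPM and was not called (adjusted p = 0.11), with 1 spl7 library high. Replicate 2 of spl7 was the highest library for 13 of the 18 genes. PCC1, a pathogen- and clock-regulated gene outside the list, stood at 7.63, 8.93 and 13.5 CPM against 141, 174 and 124 CPM. Each spl7 library was several-fold above each Col-0 library (3.85 ± 0.75, adjusted p = 0.0026). Its difference exceeded that on control solution by 6.40 ± 1.06 (adjusted p = 0.00040). Col-0 on control solution was itself uneven, with PCC1 at 8.61, 116 and 49.3 CPM against 3.31, 16.3 and 9.64 CPM in spl7.

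Jasmonate genes rose in part, with replicate 3 the spl7 library nearest to Col-0 for 19 of 24. Of these 24 genes 7 rose and none fell, with a median of 0.66. JAZ10, a repressor made in response to the hormone, stood at 2.77, 2.36 and 2.85 CPM against 9, 7.29 and 5.06 CPM (1.41 ± 0.27, adjusted p = 0.0024). It was the only one of the 7 to keep its call without any single library. JAZ7 stood at 0.15, 0.221 and 0.237 CPM against 6, 1.58 and 0.305 CPM, and LOX3, a lipoxygenase of jasmonate synthesis, at 16.8, 13.9 and 17.2 CPM against 66.7, 38.2 and 14.4 CPM. In both, replicate 1 of spl7 was highest, replicate 2 was also above every Col-0 library, and replicate 3 was near the Col-0 level (JAZ7 3.63 ± 1.03, adjusted p = 0.029; LOX3 1.31 ± 0.37, adjusted p = 0.028). LOX4 (1.95), the cyclase AOC3 (1.54), the sulfotransferase ST2A (1.32) and the reductase OPR3 (0.91) rose. Replicate 1 was the highest library for 15 of the 24 genes. The number that rose was 12 without spl7 replicate 3 and 1 without Col-0 replicate 3. The response markers VSP2 (0.01 ± 0.29) and LOX2 (0.21 ± 0.21) were not called.

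The touch and wounding list had the same spl7 library on top. None of its 9 genes was called, all 9 were highest in spl7 replicate 1, and the median was 0.88. TCH4, a cell wall enzyme induced by touch, stood at 8.16, 11.1 and 8.37 CPM against 41.7, 11.6 and 10.6 CPM (adjusted p = 0.33). On control solution 7 of the 9 were lower in spl7, and 8 differed from that in the contrast between solutions, TCH4 by 4.62 ± 1.03 (adjusted p = 0.0059). Mean TCH4 in Col-0 on control solution was 81.5 ± 84.1 CPM (SD), so that group was itself uneven.

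Of 14 genes of abscisic acid, cold and desiccation 5 rose and none fell, with a median of 0.71. Their summed level was 1353.5 to 2206.6 CPM in Col-0, 2357.5 to 4381.4 in spl7 and 2666.5 to 7173.6 in the other rosette libraries. Col-0 without both metals was thus below all other rosette libraries for this list. COR15A, which protects chloroplast membranes in the cold, stood at 341, 353 and 229 CPM against 736, 899 and 464 CPM (1.18 ± 0.25, adjusted p = 0.0046). RD29A stood at 412, 479 and 267 CPM against 978, 1168 and 502 CPM (1.19 ± 0.31, adjusted p = 0.019). For each gene replicate 3 was the lowest library in both genotypes, and the lowest spl7 library was above the highest Col-0 library. The dehydrin genes COR47 (1.03) and LTI30 (1.17) and the cold gene KIN2 (0.92) rose. The abscisic acid marker genes RAB18 (-0.02), RD29B (-0.84) and HAI1 (-0.26) and the synthesis gene NCED3 (-0.12) were not called. The number that rose was 2, COR15A and KIN2, without Col-0 replicate 3.

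The largest rises by ratio were of genes that reads nearly all missed in Col-0 without both metals. FLA3, an arabinogalactan protein of pollen, stood at 0, 0 and 0 CPM in Col-0 and 2.45, 0.615 and 2.86 CPM in spl7, at least 9.51-fold higher when Col-0 is set at 3 reads in each library. TPS21, which makes the floral sesquiterpene caryophyllene, stood at 0, 0 and 0 CPM against 2.39, 0.703 and 2.74 CPM and was at least 9.35-fold higher. Further genes with 0 reads in Col-0 were AAE11, BCP1, known from pollen and tapetum, the cell wall invertase CWINV2, and AT5G27870 and AT4G03290, at least 4.93-fold to 6.35-fold higher. Single reads in Col-0 stood against 1.67 to 5.24 CPM in spl7 for CYP76C3, which oxidizes floral linalool, DAF1, a ubiquitin ligase of anther dehiscence, and AT3G05610. Their ratios by counts were 189 (counting interval 33.4 to 7490), 173 (30.7 to 6879) and 127 (22.3 to 5047). CYP94B3, which inactivates the jasmonate hormone, had a ratio of 214 (38.1 to 8507) with 12, 2.55 and 0.183 CPM in spl7.

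In the other rosette groups most of these genes were read, though not in every library. All 12 leading rises had a Col-0 mean under 0.1 CPM without both metals. They were picked by their ratio over this group, so low means there follow in part from the choice. For 10 of them, all but BHLH100 and CYP94B3, every other rosette group of either genotype had a mean of at least 0.1 CPM. FLA3 had group means between 0.675 and 3.20 CPM elsewhere. Its single libraries elsewhere reached 0 CPM in spl7 replicate 1 pretreated with low copper and 0.0763 CPM in Col-0 replicate 2 on control solution. That spl7 library was under 0.1 CPM for 9 of the 12 genes and spl7 replicate 1 without copper for 6, so near-absence was also seen in single libraries outside the Col-0 group without both metals. DAF1 was at or above 0.1 CPM in all 21 libraries on the other solutions. A count over all tested genes was made for the Col-0 group without both metals only. There 147 genes had a mean under 0.1 CPM, with means at or above it in every other group. Of these, 42 were among the 827 genes higher in spl7. MYB24, a stamen and petal transcription factor, was among them, at 0.0748, 0 and 0 CPM against 1.64, 0.439 and 1.83 CPM (ratio 60.8 by counts, interval 10.5 to 2442). Its genotype difference exceeded that without iron by 4.95 ± 1.31 (adjusted p = 0.042). Markers of inflorescence and flower were read beside this group: none of 7 was called, and their summed level was 30.4 to 49.5 CPM in Col-0, 47.0 to 55.2 in spl7 and 42.1 to 87.1 in the other rosette libraries. Their part in the result was not tested. Of the 12 leading rises only DAF1 kept its call without any single library, and the others reached adjusted p between 0.055 and 0.25.

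**Figure D5:**
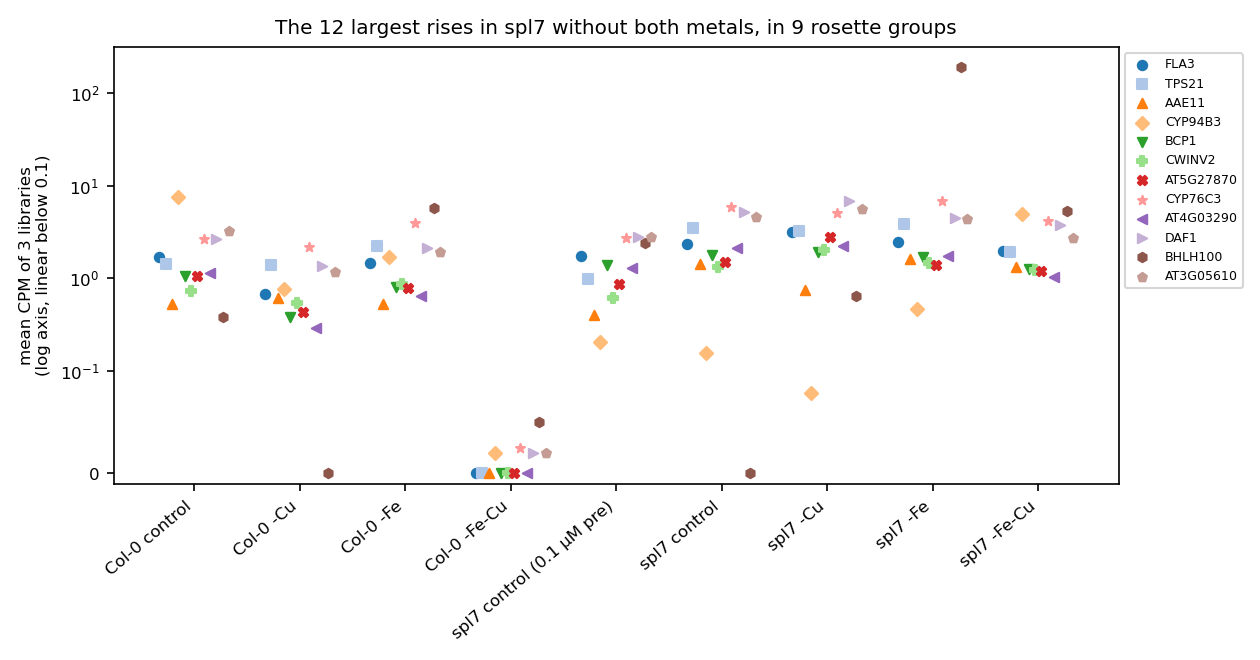
Mean CPM of the 12 genes with the largest rises in each of the 9 rosette groups (logarithmic axis, linear below 0.1; n = 3 libraries a group). The Col-0 group without both metals is under 0.1 CPM for all 12, and for 10 of them it is the only group with a mean there. The genes were picked by their ratio over this group, so low means there follow in part from the choice.

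The largest falls after FSD1 were smaller. AT2G25625 stood at 1.35, 4.13 and 1.54 CPM against 0.136, 0.0879 and 0.122 CPM (-4.21 ± 0.76, adjusted p = 0.0014). MAF5, a relative of the flowering repressor FLC, stood at 2.62, 2.29 and 2.2 CPM against 0.273, 0.264 and 0.670 CPM (-2.47 ± 0.55, adjusted p = 0.0072). Neither overlapped, and MAF5 had group means of 0.398 to 0.771 CPM in spl7 and 2.37 to 4.82 CPM in Col-0 on every solution. MYB0 (GLABRA1), which starts leaf hairs, stood at 1.27, 0.959 and 0.772 CPM against 0.205, 0.351 and 0.183 CPM (-2.03 ± 0.50, adjusted p = 0.013). CML41, a calmodulin-like protein, fell by 2.05, with 18.5, 22.5 and 9.08 CPM against 4.16, 3.43 and 4.33 CPM. PELPK1 (-2.03), AT3G08885 (-1.92), AT2G27420 (-1.73) and AT3G44970 (-1.55) complete the leading falls beside NAS3, NEET and COPT2. The single highest library of PELPK1 was Col-0 replicate 1, at 10.2 CPM, and without it the adjusted p was 0.20. MYB0 and AT3G44970 reached 0.067 and 0.12 without spl7 replicate 1.

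The remaining lists held 0 to 2 called genes each, where 8.91% of all tested genes were called. In the zinc list ZIP1, a zinc transporter, rose (0.55 ± 0.14), 1 of 8 tested. In the ethylene list EBF1, which degrades the EIN3 factor, rose (0.24 ± 0.06), 1 of 16. In the flowering list CONSTANS (CO) rose (1.01), 1 of 9, and lost its call without 4 of the 6 libraries (adjusted p up to 0.17). Falls were SPX1 (-0.50 ± 0.10), a phosphate sensor, and SQD1 (-0.43 ± 0.07), an enzyme of sulfolipid synthesis, 2 of 12 phosphate genes. APR2 (-0.68 ± 0.11), which reduces activated sulfate, was 1 of 13 sulfate genes, and UGT74C1 (-0.28 ± 0.08) 1 of 17 glucosinolate genes. ZIP1, EBF1 and UGT74C1 lost their calls without single libraries (adjusted p up to 0.069, 0.082 and 0.13). No gene of the senescence (9), oxidative stress (10), low oxygen (13) or anthocyanin (14) lists was called. In the anthocyanin list the differences were below those without iron by -3.07 for DFR, -2.82 for UF3GT, -2.52 for LDOX and -2.36 for TT19, in a contrast that called 513 genes (2.56%). DFR without both metals stood at 6.29, 5.02 and 4.39 CPM against 1.57, 1.76 and 2.25 CPM (adjusted p = 0.12).

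Cell type markers were compared to check the tissue. Mesophyll markers dominated every library: their summed level was 46877 to 49111 CPM in Col-0, 32846 to 36043 in spl7 and 21269 to 47232 in the other rosette libraries. Of the 8 mesophyll genes 3 fell, RCA and LHCB1.1 as above and the carbonic anhydrase CA1, and their part in the falls of the photosynthesis lists was not tested. Of 8 root markers 4 had enough reads to be tested, COBL9, EXPA7, CASP1 and MYB36 were near 0, and IRT1, the root iron importer, rose at 0.374, 0.148 and 0.297 CPM against 0.750, 1.49 and 1.22 CPM. In the vascular and guard cell lists the phloem exporter SWEET12, the xylem protease XCP2 and the guard cell potassium channel GORK rose, 1 in each list, and spl7 replicate 1 was the highest library for all 5 xylem genes. IRT1, XCP2, GORK and CA1 lost their calls without single libraries (adjusted p up to 0.10, 0.21, 0.073 and 0.12). No epidermis marker was called.

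How far the differences without both metals were those of the other solutions was tested gene by gene. The libraries of the 2 genotypes without both metals did not overlap for 32.1% of all genes. Of the 1783 genes called without both metals, 8 were also among the 469 called on control solution with the same sign and 159 with the opposite sign. The difference between the 2 contrasts was called for 1660 genes (8.29%; 3.88% positive and 4.42% negative), 967 of them among the 1783. Against the solution without iron 513 genes (2.56%) were called and against the solution without copper 2693 (13.5%; 5.54% positive and 7.91% negative), all 3 contrasts sharing the 6 libraries without both metals. In Col-0 and spl7 with the same pretreatment of 0.1 µM copper, on control solution, 8453 genes (42.2%) differed. Between spl7 with 0.1 µM and spl7 with 2.5 µM copper before the same control solution 4786 genes (23.9%) did. The 3 libraries with the lower pretreatment are labelled as a set of their own and had 101, 80.8 and 92.2 CPM of CCA1 against 35.5, 28.1 and 28.6 CPM, so pretreatment, set and harvest time cannot be told apart. No library of spl7 without both metals had the lower pretreatment.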

How the data were processed

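Total RNA of 54 libraries of roots and rosettes was prepared with a plant RNeasy kit and sequenced from standard Illumina libraries, per the labels' protocols. The deposited values are raw read counts per gene, which the authors made with Bowtie and HTSeq on TAIR10, per the submitters' processing notes. Versions and the strand setting are not given in the sources used here, so reads of overlapping and antisense genes cannot be told apart. Each library lists 33610 identifiers, and 28932 of them are locus tags in RefSeq TAIR10.1.

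Counts of the 27 rosette libraries were fitted together by group in edgeR 4.0.16 under R 4.3.3 (TMM scaling, filterByExpr with a minimum count of 10 and a minimum total of 15, quasi-likelihood test, Benjamini-Hochberg threshold 0.05), which left 18 residual degrees of freedom. Library totals were 11694883 to 17921929 in the 6 libraries compared. The fit was tested on simulated counts. Alternatives were DESeq2 1.42.0 size factors and Wald test, library totals without TMM, no filter, a replicate block, only the groups each comparison uses and leaving out each replicate. A fit without the 3 spl7 libraries pretreated with low copper was chosen after seeing the data. Replicate numbers were not used as pairs in the main fit. Deviations from the group means correlated at 0.008, 0.049 and 0.199 over genes for the same numbers and at -0.17 to 0.123 for unlike numbers.

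The comparison and the 34 gene lists were chosen with earlier results of these data known, and differences between solutions were interaction terms of the same fit. The text names SPL7, members of the copper and iron lists (every called one and some of the others, chosen with their values known), up to 5 called and 2 other members of each other list, and the 12 largest rises and falls and 5 largest of each sign in each difference between solutions, among called genes with at least 1 CPM in a compared group and no overlap of replicates. Further clock, jasmonate, ferredoxin and chlorophyll genes and GRP7, CCR1, ACA8, PRR3, BBX13, BBX16, STH, CDF1, FBA1 and AT1G13650 were named after their values were seen. More nitrate, abscisic acid and superoxide dismutase genes than these numbers allow were also named. Intervals of count ratios are exact 95% intervals that cover counting error only, and a group at 0 was set to 3 counts per library for a lower bound. Upstream windows and microRNA sites were read from the TAIR10.1 genome and annotation of RefSeq. Roots were not analysed here.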

Additional observations from a re-analysis of the deposited data

Results flagged for a closer look

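Each value here is the genotype difference without both metals minus the genotype difference on another solution, on the log2 scale, from an interaction term of edgeR's quasi-likelihood fit with Benjamini-Hochberg adjustment. Such a term was called for 1660 genes against control solution, 513 against the solution without iron and 2693 against the solution without copper. All 3 comparisons share the 6 libraries without both metals.

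Among clock genes the value against control solution was 3.99 for COR27, 3.54 for COR28, 1.68 for FKF1, 1.42 for TOC1, -1.25 for LNK2 and -1.57 for PRR9. COR27 also differed against no iron (3.57) and against no copper (2.28). For the salicylate genes WRKY70 and SARD1 the values against control solution were 3.08 and 2.43, and for PCC1 the value was 6.40. PCC1 was uneven in Col-0 on control solution, at 8.61, 116 and 49.3 CPM. For BTS, the ubiquitin ligase that limits the iron response, the value against control solution was 1.84. For the chloroplast ferric reductase FRO7 it was -1.39, and catalase 2 (CAT2) and nitrate reductase NIA2 had -2.09 and -1.31. BTS was uneven in Col-0 on control solution, at 71.8, 202 and 82.0 CPM. In spl7 without both metals BTS stood at 302, 317 and 123 CPM, with replicate 3 near Col-0. Against no iron HEMA1 had 1.40 and MYB24 4.95. Against no copper CCS had -2.04.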

How the results depend on the processing

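Of 120 named genes called without both metals, 60 were called in each of the 6 tests that left out 1 library and 60 lost the call in at least 1. None reversed. Calls kept numbered 120 with DESeq2 size factors, 117 without TMM, 119 without the filter, 116 by the DESeq2 Wald test and 117 without the 3 spl7 libraries pretreated with low copper. Fitted only on the libraries of the groups each comparison uses, the genotype difference was called for 3050 genes, that on control solution for 303, and the differences between solutions for 907 (against no iron) and 1427 (against no copper), and the smaller fit kept 113 of the named calls, lost BOA and gave no result for 6 genes under its filter on low counts. Leaving out 1 library gave 734 to 1510 genes without both metals (1783 with all), 83 to 428 on control solution, 3080 to 4395 between the 2 spl7 pretreatments, 1005 to 1816 for the difference against control solution, 246 to 600 against no iron and 1367 to 3912 against no copper. With the replicate number as a block, 1744 genes were called (45.9% higher in spl7) and 117 of the named calls were kept. Over all genes same-numbered libraries deviated together weakly at most (correlations of 0.008, 0.049 and 0.199). Some lists did share a pattern by number. For photosystem genes Col-0 replicate 2 was highest for 33 of 34, and spl7 replicate 2 was nearest to the Col-0 mean for 32.

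The design gives 3 libraries a group, no spl7 group without both metals with low copper pretreatment and no hour of harvest. Genes under about 10 reads a library, such as the microRNA precursors, were not testable at this depth.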
